A study of Mus musculus with 9 samples.

Results

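Inflammatory messages such as those of cytokines and chemokines are short-lived because proteins bound to their 3′ untranslated regions (3′ UTRs) direct their destruction. This account follows 8 genes of that machinery in myeloid cells of dystrophic muscle. They were taken by symbol from the count files, where all 8 were found among 50559 listed genes, and all 8 passed the filter on low counts that 16618 genes passed. The rule that picks them uses their names and no measured value, though the members were chosen with earlier results of these data known. They are *Zfp36*, *Zfp36l1*, *Zfp36l2*, *Zc3h12a*, *Zc3h12c*, *Rc3h1*, *Elavl1* and *Mapkapk2*.

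The RNA came from quadriceps of *mdx* mice, which lack dystrophin, at 4.5 weeks of age. The mice had received spironolactone, an antagonist of the mineralocorticoid receptor, prednisolone, a glucocorticoid, or vehicle alone for 7 days. Both drugs were given in a sucralose-flavoured drinking solution, which was the vehicle. Each group had 3 libraries, and each library held cells from 3 pooled pairs of quadriceps, so all groups share the dystrophin mutation and no healthy muscle was compared. Mice of both sexes entered the pools, with the same make-up in the vehicle and spironolactone groups and a larger share of females in the prednisolone group, whose part in the values was not tested. Cells had been freed from the muscle, sorted as CD45+CD11b+ without separating live from dead cells, and lysed directly. Depth was even, with 31469815 to 32943512 counts on genes per library, and replicates of a group differed by far more than counting noise, at a chi-square of 18 to 57.8 per degree of freedom. The 6 general myeloid markers summed to 15400 to 18700 CPM (normalized counts scaled to a common library total) in the 9 libraries, and no listed marker of any cell type was at 0 in every library. With spironolactone the summed markers of endothelial cells (110 to 174 CPM, against 49.2 to 87.5 CPM with vehicle), red cells (186 to 305 against 70.2 to 135 CPM) and lymphocytes (9.67 to 14.6 against 4.68 to 8.41 CPM) did not overlap the vehicle libraries. The summed markers of skeletal muscle and of dendritic cells lay above all vehicle libraries with both drugs, though with each drug some genes of each list overlapped vehicle. Those of skeletal muscle summed to 170 to 262 CPM with vehicle, 320 to 541 CPM with spironolactone and 270 to 407 CPM with prednisolone. Those of dendritic cells summed to 53.9 to 63.3, 67.8 to 115 and 75.3 to 92.5 CPM in the same order. The neutrophil markers spread widely in vehicle, from 708 to 4200 CPM, and lay at 1230 to 3160 CPM with spironolactone and 762 to 972 CPM with prednisolone. The monocyte markers summed to 1530 to 3190 CPM with vehicle, 1870 to 2200 CPM with spironolactone and 2730 to 3590 CPM with prednisolone. The drug groups did not overlap each other in the sums of either list, though not all genes went with the sums. Against vehicle, 4 of 7 monocyte estimates were above 0 with prednisolone, among them *Chil3* (1141 against 598.7 CPM). The 3 below 0 were *Ly6c2* (145.6 against 260.6 CPM), *Plac8* and *Ccr2*. Between the drugs, 6 of 8 neutrophil estimates were higher with spironolactone, most of all *Ngp* (510.2 ± 513 against 9.08 ± 13.8 CPM). *Cxcr2* and *Mmp8* were lower, and none of the 8 was called, beside 5.17% of all genes. The 8 markers of F4/80hi macrophages summed to 1280 to 1580 CPM with vehicle, 1330 to 1540 CPM with spironolactone and 1440 to 1550 CPM with prednisolone, and overlapped. However, 3 of the 8, *Lyve1*, *Cd163* and *Timd4*, lay above all vehicle libraries with prednisolone and 1, *Gas6*, lay below them. The part these cells have in the values below was not tested, and in bulk RNA fewer cells of a type and less RNA per cell cannot be told apart.

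Tristetraprolin, the product of *Zfp36*, and its relatives from *Zfp36l1* and *Zfp36l2* bind AU-rich elements through paired CCCH zinc fingers and recruit the CCR4-NOT complex, which removes the poly(A) tail. Regnase-1, from *Zc3h12a*, is an endonuclease that cuts stem-loops in the 3′ UTRs of inflammatory messages, *Zc3h12c* encodes a related protein, and *Rc3h1* encodes Roquin-1, which binds similar stem-loops. HuR, from *Elavl1*, binds AU-rich sequence and stabilizes the message. MK2, from *Mapkapk2*, is a kinase downstream of p38 that phosphorylates tristetraprolin and lowers its decay activity. In macrophages, *Zfp36* and *Zc3h12a* are induced by the same stimuli as the cytokine messages they limit, and tristetraprolin also acts on its own message.

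The preferred site of the tristetraprolin family is the nonamer TTATTTATT, written as DNA and searched on the sense strand of the 3′ UTR of 1 canonical transcript per gene. It was present in 5 of the 8 members and in 8.76% of the 12920 tested genes with an annotated 3′ UTR. Each member of the tristetraprolin family held it exactly 1 time, as did *Rc3h1*, while *Elavl1* held 8 overlapping or neighbouring copies in a 3′ UTR of 7024 bases. *Zc3h12a*, *Zc3h12c* and *Mapkapk2* held no copy. The sites of the family and of *Rc3h1* stand here with that of *Vegfa*, the only listed target that both held a copy and passed the test with prednisolone, as 30-base windows read from GENCODE vM39 transcripts on GRCm39 in the sense direction, with the nonamer in capitals.
Zfp36, chr7:28076375-28076404, minus strand: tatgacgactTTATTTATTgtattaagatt
Zfp36l1, chr12:80154940-80154969, minus strand: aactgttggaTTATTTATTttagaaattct
Zfp36l2, chr17:84492341-84492370, minus strand: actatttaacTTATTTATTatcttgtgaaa
Rc3h1, chr1:160797613-160797642, plus strand: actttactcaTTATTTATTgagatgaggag
Vegfa, chr17:46328091-46328120, minus strand: ttgttatcatTTATTTATTggtgctactgt
A match is a sequence description and does not show that a protein was bound there in these cells.

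Levels were compared between genes per transcript length, as TPM (counts divided by annotated exon length and scaled to a common total). *Zfp36* stood far above the rest, at 3929 ± 399 TPM in vehicle (SD, n = 3), which was rank 22 of 15346 tested genes with a length. *Zfp36l2* followed at 852 ± 43.5 TPM (rank 163) and *Zfp36l1* at 473.1 ± 74.3 TPM (rank 315). *Mapkapk2* lay at 348.2 ± 25.0 TPM and *Zc3h12a* at 118.3 ± 17.2 TPM. The lowest were *Rc3h1* at 26.8 ± 4.8 TPM, *Elavl1* at 20.57 ± 1.55 TPM and *Zc3h12c* at 8.445 ± 2.08 TPM. No neighbours in this order overlapped in the vehicle libraries, the closest being *Rc3h1*, whose lowest vehicle library was 23.2 TPM, and *Elavl1*, whose highest was 22.28 TPM. *Zfp36* alone made up 68.0% of the summed TPM of the 8 genes in vehicle. These ranks use exon lengths pooled over all isoforms, which can understate a gene such as *Elavl1* with 14039 annotated exonic bases. For *Zfp36* the pooled length of 3502 bases is its whole span, although its canonical transcript has 2 exons. Its TPM, rank and shares can thus be understated too.

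*Zfp36* (chr7:28076209-28079710, minus strand, GRCm39) gave 3281, 3053 and 2984 CPM in the vehicle libraries, 2183, 2440 and 2331 CPM with spironolactone and 2472, 1900 and 1517 CPM with prednisolone. All 6 drug libraries were below all 3 vehicle libraries, while the drug groups overlapped each other. Prednisolone libraries were the most dispersed, with a coefficient of variation of 24.5% against 5.57% with spironolactone and 5% in vehicle. With prednisolone *Zfp36* fell by 0.66 on the log2 scale (SE 0.14, 95% interval -0.97 to -0.35, edgeR quasi-likelihood adjusted P = 0.0337), a loss of 36.8%. It was the only member that passed, 1 of 8, where 1.76% of all genes tested passed. With spironolactone the estimate was -0.42 ± 0.14 (interval -0.73 to -0.11, edgeR adjusted P = 0.34) and did not pass. The prednisolone call was close to the threshold: edgeR gave an adjusted P of 0.0733 when fitted on the 2 groups alone. Leaving out a library gave edgeR adjusted P values of 0.092 without vehicle 2, 0.0706 without vehicle 3, 0.0549 and 0.0534 without spironolactone 2 and 3, 0.162 without prednisolone 2 and 0.107 without prednisolone 3. It stayed below 0.05 without each of the other 3 libraries, and the estimate ranged from -0.86 to -0.51 over these 9 fits. The gene overlaps *Gm44710* on the opposite strand, whose reads cannot be told apart unless the counting used strand, which is not stated.

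*Zfp36l2* (chr17:84491132-84495382, minus strand) gave 723.7, 711.2 and 740.5 CPM in vehicle, 681.8, 655.1 and 624.1 CPM with spironolactone, and 599.7, 533.7 and 582.5 CPM with prednisolone. The 3 groups formed separate bands with no overlap, vehicle highest and prednisolone lowest. The prednisolone estimate was -0.34 ± 0.087 (log2, SE, interval -0.53 to -0.15) and just missed the threshold at an edgeR adjusted P of 0.0677. That value became 0.0425 without vehicle 1, and DESeq2 called the gene at an adjusted P of 0.00429. Those were its only passes with prednisolone, 1 of the 9 fits that left out a library and 1 of the 7 other settings. Leaving out a library gave edgeR adjusted P values of up to 0.303. The spironolactone estimate was -0.15 ± 0.087 with an edgeR adjusted P of 0.648. The drugs differed by 0.19 ± 0.087, spironolactone higher (edgeR adjusted P = 0.209). *Gm36279* overlaps this gene on the opposite strand.

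*Zfp36l1* (chr12:80154528-80160006, minus strand) did not separate the groups. Vehicle libraries gave 372.7, 357.1 and 297.0 CPM, spironolactone 296.2, 355.8 and 297.9 CPM, and prednisolone 297.8, 270.9 and 272.1 CPM. Both drug groups overlapped vehicle, since vehicle 3 was as low as most drug libraries. Neither estimate passed, at -0.29 ± 0.11 for prednisolone (edgeR adjusted P = 0.229) and -0.11 ± 0.11 for spironolactone (edgeR adjusted P = 0.825).

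**Figure D1:**
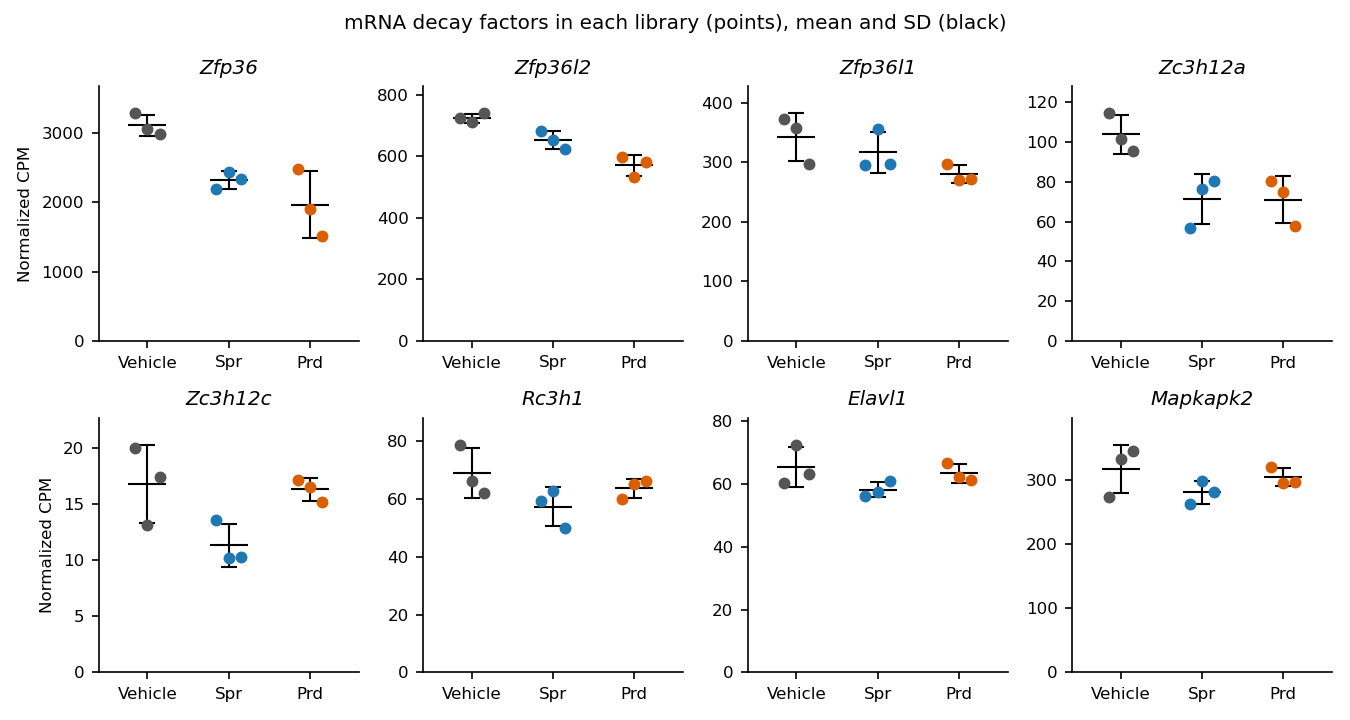
Normalized CPM of the 8 genes (one panel each, linear axis from 0) in the 3 vehicle, 3 spironolactone (Spr) and 3 prednisolone (Prd) libraries; points are libraries, black marks the mean and SD. *Zfp36*, *Zfp36l2* and *Zc3h12a* lie below all vehicle libraries in every drug library, whereas *Zc3h12c* has its lowest mean with spironolactone and its vehicle libraries spread from 13.1 to 19.95 CPM.

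The make-up of the family was also compared. The summed level of the family was 5254 ± 505 TPM in vehicle, 4104 ± 164 TPM with spironolactone and 3747 ± 614 TPM with prednisolone. *Zfp36* supplied 75.2%, 74.4% and 74.7% of it in the vehicle libraries, 69.5%, 71.0% and 72.0% with spironolactone, and 73.7%, 70.6% and 64.4% with prednisolone. Every drug library was below every vehicle library, although prednisolone 1 was lower by only a small margin. No test was run on these shares, which come from the same counts as the levels above.

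**Figure D2:**
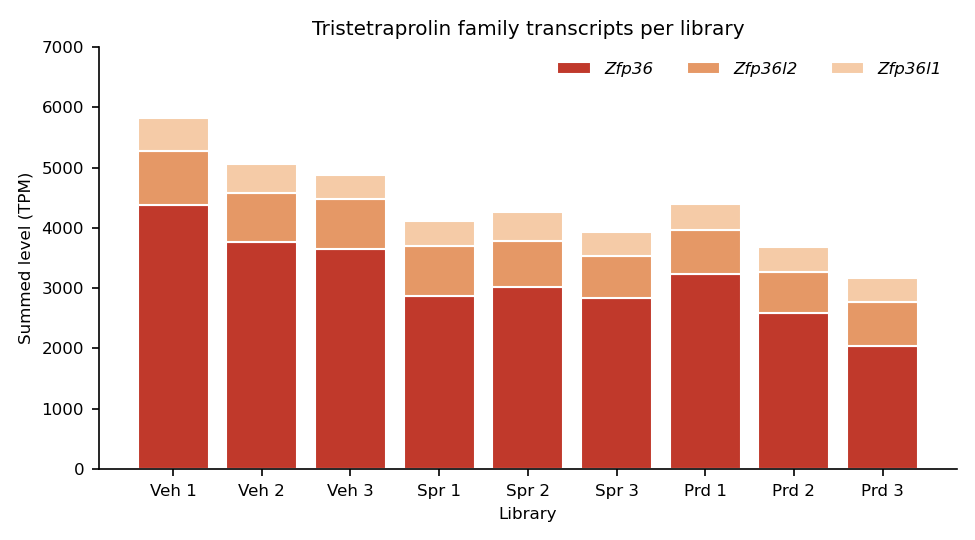
Summed TPM (linear axis from 0) of *Zfp36*, *Zfp36l2* and *Zfp36l1* in each library, vehicle (Veh), spironolactone (Spr) and prednisolone (Prd). Vehicle bars reach 4877 to 5828 TPM and drug bars 3171 to 4393 TPM, and *Zfp36* is the tallest segment in all 9 libraries.

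Neither Regnase gene was called in any comparison by the main edgeR fit over 9 libraries, though some other settings called them. *Zc3h12a* (chr4:125012216-125021711, minus strand) gave 114.4, 101.7 and 95.2 CPM in vehicle, 56.9, 76.4 and 80.4 CPM with spironolactone, and 80.5, 74.6 and 57.7 CPM with prednisolone. All drug libraries were below all vehicle libraries, and the drug groups covered almost the same range. The estimates were -0.55 ± 0.14 with prednisolone (interval -0.86 to -0.24, edgeR adjusted P = 0.0809) and -0.54 ± 0.14 with spironolactone (interval -0.86 to -0.23, edgeR adjusted P = 0.188), and neither passed. Without spironolactone 1 the prednisolone value became 0.033. It passed in no other of the 9 fits that left out a library, which gave up to 0.242. The spironolactone value passed in 0 of these 9 fits. Of the 7 other settings only DESeq2, and edgeR without the low-count filter, called *Zc3h12a*, each with both drugs. Set directly against each other, the drugs differed by 0.0066 on the log2 scale, with an interval of -0.31 to 0.32.

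*Zc3h12c* (chr9:52020873-52080106, minus strand) was scarce, with 19.95, 13.1 and 17.4 CPM in vehicle, 13.5, 10.2 and 10.3 CPM with spironolactone and 17.2, 16.5 and 15.2 CPM with prednisolone. Prednisolone libraries lay within the vehicle range. Spironolactone libraries lay below all prednisolone libraries, but spironolactone 1 overlapped vehicle 2. The spironolactone estimate was -0.57 ± 0.16 (interval -0.92 to -0.22, edgeR adjusted P = 0.215) and the prednisolone estimate -0.045 ± 0.16 (interval -0.39 to 0.30, edgeR adjusted P = 0.935). Between the drugs the estimate was -0.52 ± 0.16, spironolactone lower, with an edgeR adjusted P of 0.0763. That last value passed in 3 of the 9 fits that left out a library, at 0.0302 without vehicle 1, 0.0489 without vehicle 2 and 0.0411 without spironolactone 1, and in the fit of the 2 groups alone at 0.0295. *Mir6244* and *Gm67753* lie on the opposite strand of this locus.

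*Rc3h1* (chr1:160733982-160802548, plus strand) gave 78.7, 66.1 and 62.0 CPM in vehicle, 59.5, 62.7 and 49.8 CPM with spironolactone and 59.8, 65.1 and 66.1 CPM with prednisolone. Both drug groups overlapped vehicle. The estimates were -0.27 ± 0.11 for spironolactone (edgeR adjusted P = 0.476) and -0.11 ± 0.11 for prednisolone (edgeR adjusted P = 0.704). *Gm37052*, *Gm37653* and *Gm37809* share its strand, so their reads and those of *Rc3h1* may be split.

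The stabilizing factor and the kinase gave no call in any comparison. *Elavl1* (chr8:4332576-4375489, minus strand) gave 60.5, 72.5 and 63.3 CPM in vehicle, 56.3, 57.5 and 60.8 CPM with spironolactone and 66.8, 62.2 and 61.2 CPM with prednisolone. *Mapkapk2* (chr1:130981423-131025593, minus strand) gave 273.8, 332.4 and 344.2 CPM in vehicle, 262.6, 298.1 and 280.6 CPM with spironolactone and 320.7, 295.4 and 296.4 CPM with prednisolone. For both genes each drug group overlapped vehicle. The prednisolone intervals on the log2 scale were -0.24 to 0.15 for *Elavl1* (edgeR adjusted P = 0.874) and -0.28 to 0.16 for *Mapkapk2* (edgeR adjusted P = 0.858). The spironolactone intervals were -0.36 to 0.025 (edgeR adjusted P = 0.603) and -0.39 to 0.041 (edgeR adjusted P = 0.644). *Elavl1* overlaps *Ccl25* and *Mapkapk2* overlaps *Gm70341* on the opposite strand, and *Gm25549* and *Gm37084* share the strand of *Mapkapk2*.

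**Figure D3:**
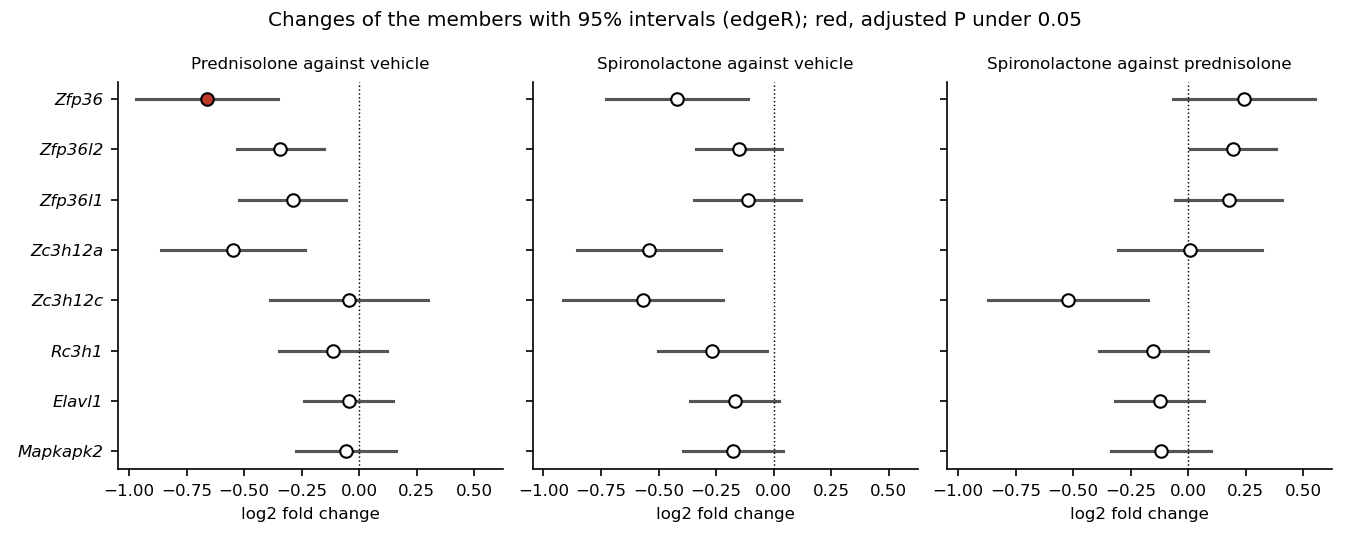
log2 fold change (points) with 95% intervals (lines) of the 8 genes in the 3 comparisons, from the edgeR fit over 9 libraries; a red point passed an adjusted P of 0.05. *Zfp36* under prednisolone, at -0.66, is the single red point, and the interval of *Zc3h12c* lies below 0 in both comparisons with spironolactone and spans 0 for prednisolone against vehicle.

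Counted over the members, all 8 estimates were below 0 with prednisolone and all 8 with spironolactone, beside 52.2% and 50% of all genes tested. The median of the 8 was -0.20 with prednisolone and -0.22 with spironolactone, and that of all genes tested was -0.014 and 9e-05. Both comparisons use the same 3 vehicle libraries, so they do not count as separate evidence. Drug libraries lay entirely below vehicle for 3 of 8 members with prednisolone (*Zfp36*, *Zfp36l2* and *Zc3h12a*), where 9.27% of all genes did, and for 3 of 8 with spironolactone (*Zfp36*, *Zfp36l2* and *Zc3h12a*), where 6.5% did. With prednisolone *Zfp36*, *Zfp36l2*, *Zc3h12a* and *Zfp36l1* were at an unadjusted edgeR P under 0.05, beside 14.2% of all genes. DESeq2 called 3 of them (*Zfp36*, *Zfp36l2* and *Zc3h12a*) and limma-voom 1 (*Zfp36*). With spironolactone edgeR called 0 of 8 members, beside 0.0181% of all genes. At an unadjusted P under 0.05 there were 4 of 8 (*Zc3h12a*, *Zc3h12c*, *Zfp36* and *Rc3h1*), beside 9.29% of all genes, DESeq2 called 1 (*Zc3h12a*) and limma-voom 0. Between the drugs edgeR called 0 of 8, beside 5.17% of all genes, with 2 of 8 at an unadjusted P under 0.05 (*Zc3h12c* and *Zfp36l2*), beside 22.5% of all genes and thus near the background, 1 by DESeq2 (*Zc3h12c*) and 0 by limma-voom. The intervals of the drug difference reached from -0.068 to 0.55 for *Zfp36* and from -0.057 to 0.41 for *Zfp36l1*, so equal levels in the drug groups were not shown.

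The likeness of the members across libraries is described here without a test. Over the 9 libraries, the Pearson r of log2 CPM was 0.88 for *Zfp36* with *Zc3h12a* (Spearman rho 0.93), 0.81 for *Zfp36* with *Zfp36l2* and 0.77 for *Zfp36* with *Zfp36l1*. *Elavl1* and *Mapkapk2* also went together at 0.75. In all, 9 of 28 pairs exceeded 0.5. The 9 points share 3 treatment groups, so a pair can be alike through the groups alone.

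Among all genes tested, those most like *Zfp36* over the 9 libraries were *Il10*, the anti-inflammatory cytokine (r = 0.988, rho = 0.983), the kinase genes *Pim1* (0.976) and *Pim3* (0.964), *Ifrd1* (0.967) and *Vegfa*, the vascular growth factor (0.961). These genes were picked for that likeness as the highest of all genes tested. After each library's value was set against the mean of its group, r was 0.87 to 0.97 for these 5. *Il10* followed the dispersion of *Zfp36* under prednisolone, with 14.2, 8.99 and 3.95 CPM in prednisolone 1, 2 and 3, against 29.6, 22.5 and 21.3 CPM in vehicle and 11.6, 14.9 and 11.7 CPM with spironolactone. For *Zfp36l2* the nearest genes were *Nampt* (0.971), *Cd274*, which encodes PD-L1 (0.96), *Slc7a6os* (0.956), *Mdfic* (0.949) and the chemokine gene *Ccl4* (0.948). Against the group means r was 0.95 for *Nampt* and 0.84 for *Mdfic* but 0.7 for *Cd274*, 0.69 for *Slc7a6os* and 0.45 for *Ccl4*, so the likeness of *Ccl4* lay largely in the differences between groups. For *Zc3h12a* they were *Sfpq* (0.947), *Ufd1* (0.935), *Gpr132* (0.932), *Vegfa* (0.924) and *Gm3052* (0.911), with r against the group means of 0.77 to 0.93. For *Zfp36l1* they were *Fam83f* (0.952), *Cd300ld5* (0.919), *Pex10* (0.912), *Frg2f1* (0.903) and *Zfp866* (0.901), with 0.83 to 0.97 against the group means. Some were scarce, with log2 CPM of -0.20 to 2.59 for *Cd300ld5*, -0.42 to 0.80 for *Frg2f1* and -0.74 to 0.96 for *Gm3052*. The r against the group means comes from the same values by which the genes were picked, so it is not separate evidence.

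Factors that work with the members were called about as often as other genes. Of 53 listed partners (paralogs of the members, other RNA-binding regulators, deadenylation and decapping factors, the Regnase partner *Upf1* and protease *Malt1*, and the p38 pathway), 48 had enough counts. With prednisolone 1 of 48 was called (3 without vehicle 1), near the 1.76% of all genes, and the median was 0.01, with 23 of 48 estimates below 0, beside 52.2% of all genes. It was *Dusp1*, the phosphatase that switches off p38, with 1336, 1334 and 1741 CPM in vehicle and 1056, 940.1 and 722.9 CPM with prednisolone. *Dusp1* fell by 0.70 on the log2 scale (SE 0.15, edgeR adjusted P = 0.0295). The call was lost without vehicle 2 (0.0527), vehicle 3 (0.103), prednisolone 2 (0.125) or prednisolone 3 (0.107). It was also lost in the fit of the 2 groups alone (0.0563) and with the replicate block. The next smallest P values with prednisolone belonged to *Mapkapk3*, the kinase closest to MK2 (70.9 ± 0.641 against 87.8 ± 9.36 CPM, edgeR adjusted P = 0.134), and *Btg2*, a deadenylation cofactor (223.2 ± 28.0 against 295.4 ± 38.7 CPM, edgeR adjusted P = 0.193). None of the 17 deadenylation and 9 decapping genes was called by edgeR with prednisolone (4 and 0 at an unadjusted P under 0.05, beside 14.2% of all genes).

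With spironolactone edgeR called 0 of the 48 partners (1 without spironolactone 1), with 8 at an unadjusted P under 0.05 (9.29% of all genes), 2 by DESeq2 and 0 by limma-voom. The median was -0.08, and 38 of 48 estimates were below 0, beside 50% of all genes. The partners summed to 6060 to 6370 CPM with vehicle, 5070 to 5440 CPM with spironolactone and 5350 to 5960 CPM with prednisolone, so the sum lay below all vehicle libraries with both drugs. *Dusp1* alone averaged 1470, 1019 and 906.4 CPM in the same order. With prednisolone the deadenylation genes summed to 2480 to 2640 CPM, against 2440 to 2550 CPM in vehicle. With spironolactone the sums of the deadenylation genes (2030 to 2380 against 2440 to 2550 CPM in vehicle) and the decapping genes (375 to 445 against 448 to 485 CPM) also lay below vehicle, and 2 genes of each list were at an unadjusted P under 0.05 (*Btg1* and *Cnot7*, *Ddx6* and *Patl1*). *Malt1*, the protease that cleaves Regnase-1 and Roquin in activated lymphocytes, gave 99.3, 92.6 and 92.7 CPM in vehicle, 75.1, 59.6 and 60.4 CPM with spironolactone, and 107.1, 92.2 and 94.7 CPM with prednisolone. Spironolactone libraries were below both other groups. Against vehicle the estimate was -0.54 ± 0.10 (edgeR adjusted P = 0.106), which passed without spironolactone 1 at 0.0411. It also passed by DESeq2, without the low-count filter and with the replicate block. Against prednisolone *Malt1* was lower by 0.59 on the log2 scale (-0.59 ± 0.10, edgeR adjusted P = 0.00704), and this passed in all 9 fits that left out a library, at 0.0389 or less. The next smallest P values of the partners with spironolactone were those of *Dusp1* (1019 ± 104 CPM, edgeR adjusted P = 0.208) and *Patl1*, a decapping activator (65.0 ± 4.68 against 78.4 ± 4.65 CPM, edgeR adjusted P = 0.33). With spironolactone *Dusp1* passed by DESeq2 and in edgeR without the low-count filter, and *Patl1* in no other setting. Neither passed in any fit that left out a library.

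Between the drugs 3 of 48 partners were called (5 without vehicle 1, and 1 without any single library of either drug), close to the 5.17% of all genes. Besides *Malt1* these were *Zc3h12d*, a Regnase paralog, higher with spironolactone (33.8, 35.1 and 35.3 CPM against 27.3, 22.6 and 27.6 CPM, difference 0.43 ± 0.11, edgeR adjusted P = 0.0362), and *Pabpc1*, the poly(A)-binding protein, lower with spironolactone (823.3, 976.6 and 952.9 CPM against 1242, 1179 and 1167 CPM, -0.38 ± 0.097, edgeR adjusted P = 0.0368). In vehicle *Zc3h12d* lay between the drugs, at 31.8, 30.2 and 26.0 CPM, overlapping prednisolone, and *Pabpc1* at 967.5, 1083 and 992.5 CPM, overlapping spironolactone. Both calls were lost without any single library of either drug. The edgeR adjusted P values were then, in the order spironolactone 1 to 3 and prednisolone 1 to 3, 0.0555, 0.101, 0.114, 0.0852, 0.158 and 0.07 for *Zc3h12d* and 0.0909, 0.0685, 0.0946, 0.13, 0.105 and 0.0854 for *Pabpc1*. The paralogs *Zfp36l3*, *Zc3h12b* and *Elavl2* to *Elavl4* had at most 11 counts in any library and were not tested.

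The listed targets of these decay factors gave calls in 1 direction with prednisolone. Of 25 targets of tristetraprolin, Regnase-1 or Roquin, 24 had enough counts, *Csf2* being the exception at 3 counts or fewer. With prednisolone 3 of 24 were called, all lower, beside 1.76% of all genes, and 19 of 24 estimates were below 0, beside 52.2% of all genes, with a median of -0.46. The number called was 5 without prednisolone 1 and 2 without vehicle 1, 2 or 3, spironolactone 2 or 3, or prednisolone 2. They were *Ccl4* (155.8 ± 15.7 CPM in vehicle, 61.4 ± 9.68 CPM with prednisolone), *Ccl3* (210.9 ± 45.6 and 107.4 ± 18.1 CPM) and *Vegfa* (81.5 ± 8.81 and 40.2 ± 13.5 CPM). *Ccl4* and *Ccl3* encode chemokines that attract monocytes and other leukocytes. Library by library, *Ccl4* gave 137.8, 166.8 and 162.8 CPM in vehicle, 106.6, 105.4 and 103.1 CPM with spironolactone and 72.6, 56.5 and 55.1 CPM with prednisolone. The 3 groups did not overlap. With prednisolone *Ccl4* fell by 1.34 on the log2 scale (SE 0.11, edgeR adjusted P = 0.000219) and *Ccl3* by 0.97 (SE 0.16, edgeR adjusted P = 0.00966), calls that stayed in all 9 fits that left out a library. *Ccl4* was also higher with spironolactone than with prednisolone (0.77 ± 0.11, edgeR adjusted P = 0.00254), the only target called between the drugs, 1 of 24, beside 5.17% of all genes and thus near the background.

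*Vegfa* gave 91.4, 74.7 and 78.3 CPM in vehicle, 40.5, 45.0 and 43.2 CPM with spironolactone and 52.3, 42.5 and 25.7 CPM with prednisolone. Every drug library was well below vehicle. With prednisolone *Vegfa* fell by 1.02 (SE 0.21, edgeR adjusted P = 0.0377), and with spironolactone the estimate was -0.93 ± 0.21 at an edgeR adjusted P of 0.164. The prednisolone call held without prednisolone 1 or prednisolone 3 and was lost without any of the other libraries, at 0.1, 0.1 and 0.0915 without vehicle 1, 2 and 3, 0.0664, 0.0586 and 0.0796 without spironolactone 1, 2 and 3, and 0.135 without prednisolone 2. Fitted on the 2 groups alone the prednisolone value was 0.106. With spironolactone *Vegfa* passed in the fit of the 2 groups alone, by DESeq2 and in edgeR without the low-count filter. Of the 9 fits that left out a library it passed in 1, without prednisolone 3, at an edgeR adjusted P of 0.00901.

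With spironolactone edgeR called 0 of 24 targets, though 13 were at an unadjusted P under 0.05 (9.29% of all genes), DESeq2 called 6 and limma-voom 0. The number called was 2 without vehicle 1 and 4 without prednisolone 3. The median was -0.53, with 22 of 24 estimates below 0, beside 50% of all genes. The smallest P values were those of *Ccl4* (-0.57 ± 0.11, edgeR adjusted P = 0.106), *Vegfa*, and *Nfkbiz*, a target of Regnase-1 that encodes an NF-kappaB cofactor (260.2 ± 39.3 against 422.0 ± 31.1 CPM in vehicle, -0.70 ± 0.18, edgeR adjusted P = 0.187). DESeq2, and edgeR without the low-count filter, called each of these. Each also passed in 1 of the 9 fits that left out a library, *Ccl4* without vehicle 1 and *Vegfa* and *Nfkbiz* without prednisolone 3. Between the drugs, *Ccl3* (0.44 ± 0.15, edgeR adjusted P = 0.119) and *Cdkn1a*, the cell cycle inhibitor (-0.30 ± 0.12, edgeR adjusted P = 0.166), followed *Ccl4*.

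Values of stress-induced genes stand beside these results. *Zfp36* and several targets are themselves rapid-response genes, and such genes are also switched on while tissue is being dissociated. Of 18 immediate early and dissociation genes, 8 were called lower with prednisolone and 0 higher, beside 1.76% of all genes in either direction, with a median of -0.45 and summed levels of 10000 to 13100 CPM against 15600 to 16200 CPM in vehicle. The list shares 3 genes with those above, the partners *Dusp1* and *Btg2* and the target *Fos*, and *Dusp1* is 1 of the 8 called. Among the 15 others 7 were called lower, with a median of -0.43. For all 18 the number called was 3 without vehicle 2, prednisolone 2 or prednisolone 3, and 4 without vehicle 3. With spironolactone edgeR called 0 of 18, beside 0.0181% of all genes, with 8 at an unadjusted P under 0.05, beside 9.29% of all genes, 3 by DESeq2 and 0 by limma-voom, and the sum was 12800 to 13800 CPM. None of the 18 was at 0. Their part in the *Zfp36* result was not tested. Of 10 glucocorticoid-induced genes, all 10 estimates were below 0 with prednisolone, beside 52.2% of all genes, with a median of -0.41, and 1 was called, *Per1*, which was lower, beside 1.76% of all genes. With spironolactone 7 of the 10 estimates were below 0, beside 50% of all genes, with a median of -0.42, and 5 were at an unadjusted P under 0.05, beside 9.29% of all genes. *Per1* gave an estimate of -0.72 ± 0.16 there and did not pass (edgeR adjusted P = 0.156). Their summed levels were 936 to 1070 CPM with vehicle, 685 to 819 CPM with spironolactone and 601 to 753 CPM with prednisolone, so both drug groups lay below all vehicle libraries and overlapped each other.

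**Figure D4:**
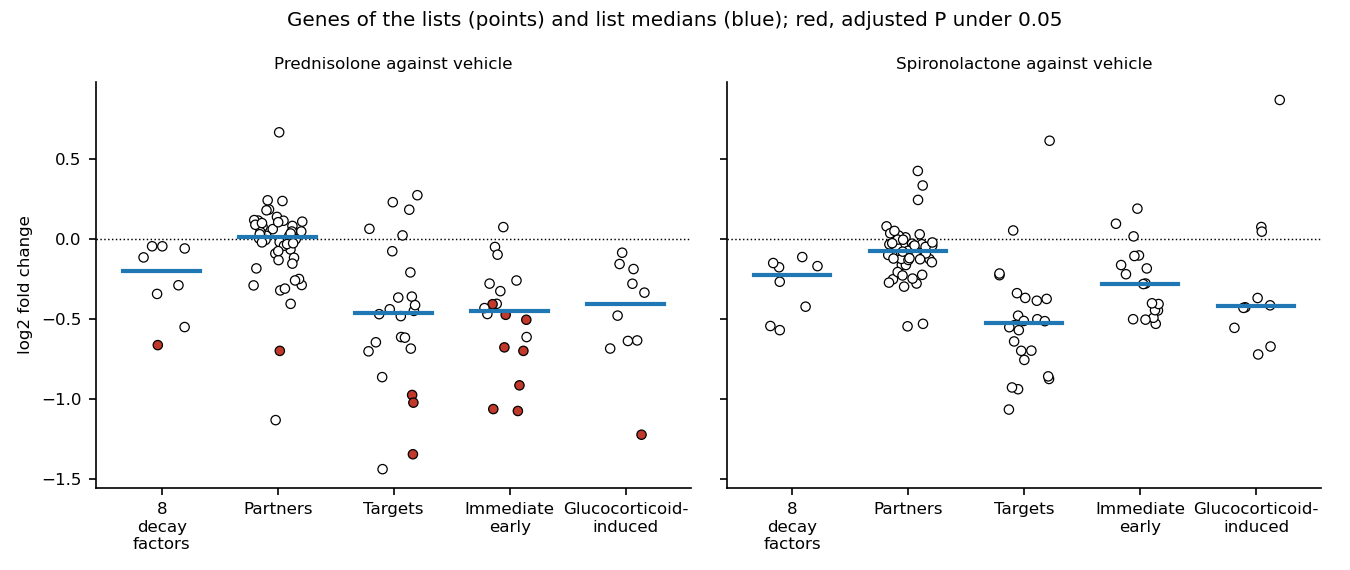
log2 fold change against vehicle of the 8 decay factors, 48 partners, 24 targets, 18 immediate early genes and 10 glucocorticoid-induced genes; each point is a gene, blue lines are medians and red points passed an adjusted P of 0.05. The partners have medians of 0.01 with prednisolone and -0.08 with spironolactone, while the medians of the targets (-0.46 and -0.53), the immediate early genes (-0.45 and -0.28) and the glucocorticoid-induced genes (-0.41 and -0.42) lie lower. *Dusp1*, *Btg2* and *Fos* are drawn in 2 lists.

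Messages that hold the nonamer were also described as a class. Of the 25 listed targets 9 held the nonamer, among them *Vegfa* with 1 copy and *Tnf* with 5, while *Ccl3* and *Ccl4* held none. Over the 12920 tested genes with an annotated 3′ UTR, the median log2 fold change with prednisolone was 0.003 for 11788 genes without it, 0.012 for 869 genes with 1 copy and 0.001 for 263 genes with 2 or more. The shares called by edgeR were 2.11%, 1.84% and 2.28%. With spironolactone the medians were 0.006, -0.043 and -0.031, with 48.8%, 59.6% and 55.9% of estimates below 0. Genes with the nonamer have longer 3′ UTRs (median 1241, 2504 and 3040 bases). Among genes with 1000 to 3000 bases, a band chosen after the data were seen, the spironolactone medians were -0.012, -0.043 and 0.038. In this band the sign of the shift was thus not the same for 1 copy and for 2 or more. Over all lengths both spironolactone medians were below 0.

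**Figure D5:**
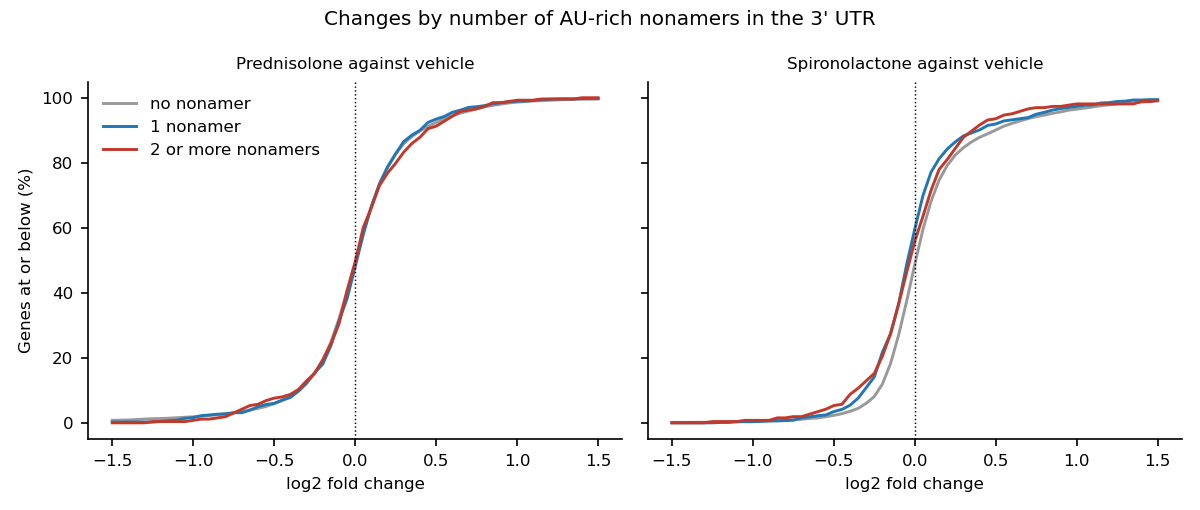
Cumulative share of genes (%, vertical) at or below each log2 fold change against vehicle (horizontal), for genes whose 3′ UTR holds no nonamer, 1 nonamer or 2 or more. With prednisolone the curves lie together, with medians of 0.003, 0.012 and 0.001, and with spironolactone the curves with nonamers run slightly to the left, with medians of -0.043 and -0.031 against 0.006.

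Promoter entries were found for 7 of the 8 members in the RefSeq table (GRCm38.p6, 250 bases before to 50 after the start), *Zfp36l2* having none. They were searched on both strands for AGAACA (the hexamer of glucocorticoid receptor sites), TGACTCA (AP-1), TGACGTCA (CREB), GGGACTTTC (NF-kappaB) and GCGGGGGCG (EGR1). These letters occur in 19.0%, 5.2%, 1.79%, 0.353% and 2.91% of 32851 promoters. The *Zfp36* promoter held 1 EGR1 match and none of the others, *Rc3h1* held 1 AP-1 match, and 1 of the entries of *Zc3h12c* held 1 AGAACA. The promoters of *Zc3h12a*, *Zfp36l1*, *Elavl1* and *Mapkapk2* held none of the 5. The *Zfp36* promoter is shown because it belongs to the only member that was called, with the EGR1 match in capitals, on the strand of the gene at chr7:28379179-28379478 (minus, GRCm38.p6).
Zfp36 promoter: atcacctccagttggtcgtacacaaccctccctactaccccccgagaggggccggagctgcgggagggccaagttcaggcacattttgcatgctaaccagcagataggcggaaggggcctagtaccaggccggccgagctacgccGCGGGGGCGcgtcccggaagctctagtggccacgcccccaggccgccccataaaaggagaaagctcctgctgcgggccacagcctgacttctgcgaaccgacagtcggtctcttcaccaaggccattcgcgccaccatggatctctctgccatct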

How the data were processed

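RNA of sorted CD45+CD11b+ cells was sequenced in 9 libraries, 3 per group. The deposited files hold raw counts per gene symbol, made by the authors with HISAT2 2.2.1 against mm39 and HTSeq 0.11.3. Strand use in counting is not given in the sources used here. Lines that name no gene (17.2% to 21.8% of counts) were left out. The deposited tables of the authors' own comparisons (fold changes and P values from DESeq2 1.32.0) were not used. Counts were fitted with edgeR 4.0.16 in R 4.3.3 (TMM, filterByExpr with a minimum count of 10 and total of 15, robust quasi-likelihood, all 9 libraries, two-sided, Benjamini-Hochberg over 16618 genes, threshold 0.05), after a test on simulated data. CPM are TMM-normalized, and r used log2 CPM with a prior count of 2. TPM used GENCODE vM39 exon lengths, which 40043 of 50559 symbols had (at least 90.9% of counts). Intervals are 95% intervals of the fit. Values after ± are SD for levels and SE for differences. P values measure the spread between pooled libraries, and depth leaves counting error small for the members, the scarcest having at least 323 counts in each library.

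Named besides the members were all partners and targets past the threshold, the 3 smallest P values per list and comparison, and the 5 most correlated genes for 4 members. *Il10*, *Per1*, *Tnf*, *Csf2*, *Fos*, *Btg1*, *Cnot7*, *Ddx6*, *Lyve1*, *Cd163*, *Timd4*, *Gas6*, *Chil3*, *Ly6c2*, *Plac8*, *Ccr2*, *Ngp*, *Cxcr2* and *Mmp8* were named outside that rule, after their values were seen. Members, lists and motifs were chosen with earlier results of these data known. Replicate numbers gave no general pairing of the libraries: 2 of 9 same-number pairs correlated above 0.1 (-0.038 to 0.15). Both were in spironolactone against vehicle (0.12 for number 1 and 0.15 for number 3), where pairs of different numbers gave -0.17 to 0.039. Alternatives were DESeq2 1.42.0, limma-voom 3.58.1, RLE, no scaling factors, no filter, the 2 groups alone, a replicate block and leaving out each library.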

Additional observations from a re-analysis of the deposited data

Results flagged for a closer look

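4 partner or target genes differed between the drugs by the direct test of spironolactone against prednisolone (edgeR, all 9 libraries). *Malt1* differed by -0.59 and *Pabpc1* by -0.38 on the log2 scale, both lower with spironolactone, while *Zc3h12d* by 0.43 and *Ccl4* by 0.77 were higher with spironolactone. *Malt1* and *Ccl4* passed in all 9 fits that left out a library, and *Zc3h12d* and *Pabpc1* in 3 of 9. The partners among them are 3 of 48 and *Ccl4* is 1 of 24 targets, both close to the 5.17% of all genes called between the drugs.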

How the results depend on the processing

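Of 384 member estimates under the alternatives, 348 kept their direction and their side of the threshold. *Zfp36* with prednisolone stayed negative in all 16 alternatives. It passed in 6 of the 7 other settings, all but the fit of the 2 groups alone, and in 3 of the 9 that left out a library.

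DESeq2 called 684, 263 and 1594 genes for prednisolone against vehicle, spironolactone against vehicle and spironolactone against prednisolone, where edgeR called 293, 3 and 859, and 3, 1 and 1 members (*Zfp36*, *Zfp36l2* and *Zc3h12a*; *Zc3h12a*; *Zc3h12c*) where edgeR called 1, 0 and 0. Without the low-count filter edgeR called 1019, 528 and 1940 genes and 2, 3 and 1 members. limma-voom called 0 genes for spironolactone against vehicle, where 1543 had an unadjusted P under 0.05 in the main edgeR fit. The 2 groups alone gave 0 members for prednisolone against vehicle, and 1598 genes and 1 member between the drugs. The cause of these differences was not tested. With the replicate block, 8 genes were called for spironolactone against vehicle (0 members) and 1 member between the drugs (*Zc3h12c*). For prednisolone the block gave 336 genes and the same count of 1 member, and *Dusp1* had an adjusted P of 0.0523. The replicate numbers gave no general pairing, though in spironolactone against vehicle the pairs of numbers 1 and 3 correlated above 0.1.

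Leaving out 1 library gave 69 (without prednisolone 2) to 826 (without vehicle 1) genes and 0 to 2 members for prednisolone against vehicle. It gave 0 (without vehicle 3, spironolactone 3 or prednisolone 2) to 34 (without spironolactone 2) genes and 0 members for spironolactone against vehicle. Between the drugs it gave 232 (without prednisolone 2) to 1898 (without vehicle 1) genes and 0 to 1 members. Estimates that changed sign were all close to 0. The difference of *Zc3h12a* between the drugs, 0.0066, became -0.00496 with DESeq2, -0.000771 with the 2 groups alone, -0.00317 with RLE, -0.03 with library totals and -0.00938 without the filter, and ranged from -0.12 to 0.14 when 1 library was left out. With prednisolone, leaving out 1 library gave -0.19 to 0.097 for *Zc3h12c*, -0.098 to 0.036 for *Elavl1* and -0.15 to 0.0086 for *Mapkapk2*.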
